A study of Mus musculus with 2 samples.

Results

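The glycolysis and hypoxia genes described here are 37 named genes of glucose uptake, glycolysis, lactate handling and oxygen sensing. They were matched by gene symbol from a given list, with no cut on a measured value, out of 55536 genes in the tables, of which 22028 are annotated as protein-coding. All 37 symbols were found, under 38 gene identifiers, since 2 identifiers share the symbol Aldoa and were summed. The libraries hold ribosome-depleted total RNA of the nuclear fraction, described as nucleoplasmic, of macrophages grown from the bone marrow of C57BL/6J mice. The single group comprised biological replicates 1 and 2, with no allele or transgene named. Both had Lipid A at 100 ng/ml for 12 h, then 12 h of washout, then a second dose of Lipid A at 100 ng/ml, lasting 10 min. Lipid A is the membrane anchor of bacterial lipopolysaccharide and is sensed by the receptor TLR4. Sex and age were not collected. The replicates share a donor identifier, and the labels do not say whether they came from separate animals or cultures, so the spread between them may be technical. Untreated cells and other time points were not used here, so no level below is a response to Lipid A, and no test between conditions was possible.

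Glycolysis breaks glucose down to pyruvate in the cytosol. Macrophages exposed to bacterial products are known to raise glucose uptake and to turn much of their pyruvate into lactate, which leaves the cell through monocarboxylate transporters. The transcription factor HIF1A drives many genes of this pathway when oxygen is low or when inflammatory signals stabilise it, and prolyl hydroxylases of the EGLN family mark it for destruction when oxygen is present.

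Gene counts summed to 24444189 in replicate 1 and 18051075 in replicate 2, after rounding per gene. The starting amount of nucleic acid was 1 µg for replicate 1 and 500 ng for replicate 2, so a difference between the replicates and a difference in input cannot be told apart. All 10 macrophage markers checked were detected, with summed levels of 2686 and 2534 TPM (a level scaled to the library total and corrected for transcript length) in replicates 1 and 2. Of 25 markers of B cells, T and NK cells, neutrophils, fibroblasts and endothelium, 3 were detected (Pecam1, Kdr and Vwf, all endothelial markers). The 25 summed to 27.7 and 25.5 TPM in replicates 1 and 2, and 8 of them, among them Cd3g, Cd8a and Ly6g, had no count in either gene table. In the second transcript tables, derived directly from reads and an index, the 25 summed to 13.8 and 22.9 TPM, and some of the 8 had low values there, such as Cd3g with 34.4 and 74.2 counts and Cd8a with 83.8 and 102.9 counts in replicates 1 and 2. In bulk RNA, fewer cells of a type and less RNA per cell cannot be told apart.

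Of the 37 genes, 29 were detected, meaning that each library gave them 1 TPM or more and 10 expected counts or more. The same rule was met by 42.9% of all protein-coding genes. The median level of the 37 genes was 10.4 TPM (8.97 in replicate 1 and 10.8 in replicate 2, SD 1.31, n = 2), against 0.35 TPM over all protein-coding genes and 7.99 TPM over the 9443 detected ones. That last median was exceeded by 19 of the 37 genes. Together the 37 genes held 0.237% of gene counts in replicate 1 and 0.213% in replicate 2. When the genes were ordered by mean TPM, neighbours were clear of each other in 10 of 36 pairs. Clear means that both replicate values of a gene lay above both values of the next. The rule does not compare genes within a library, so a shift of a whole library counts as spread. Pgk1 with 17.6 and 18.1 TPM, for example, lay above Hk2 with 16.9 and 17.8 TPM in each library but was not clear of it.

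**Figure D1:**
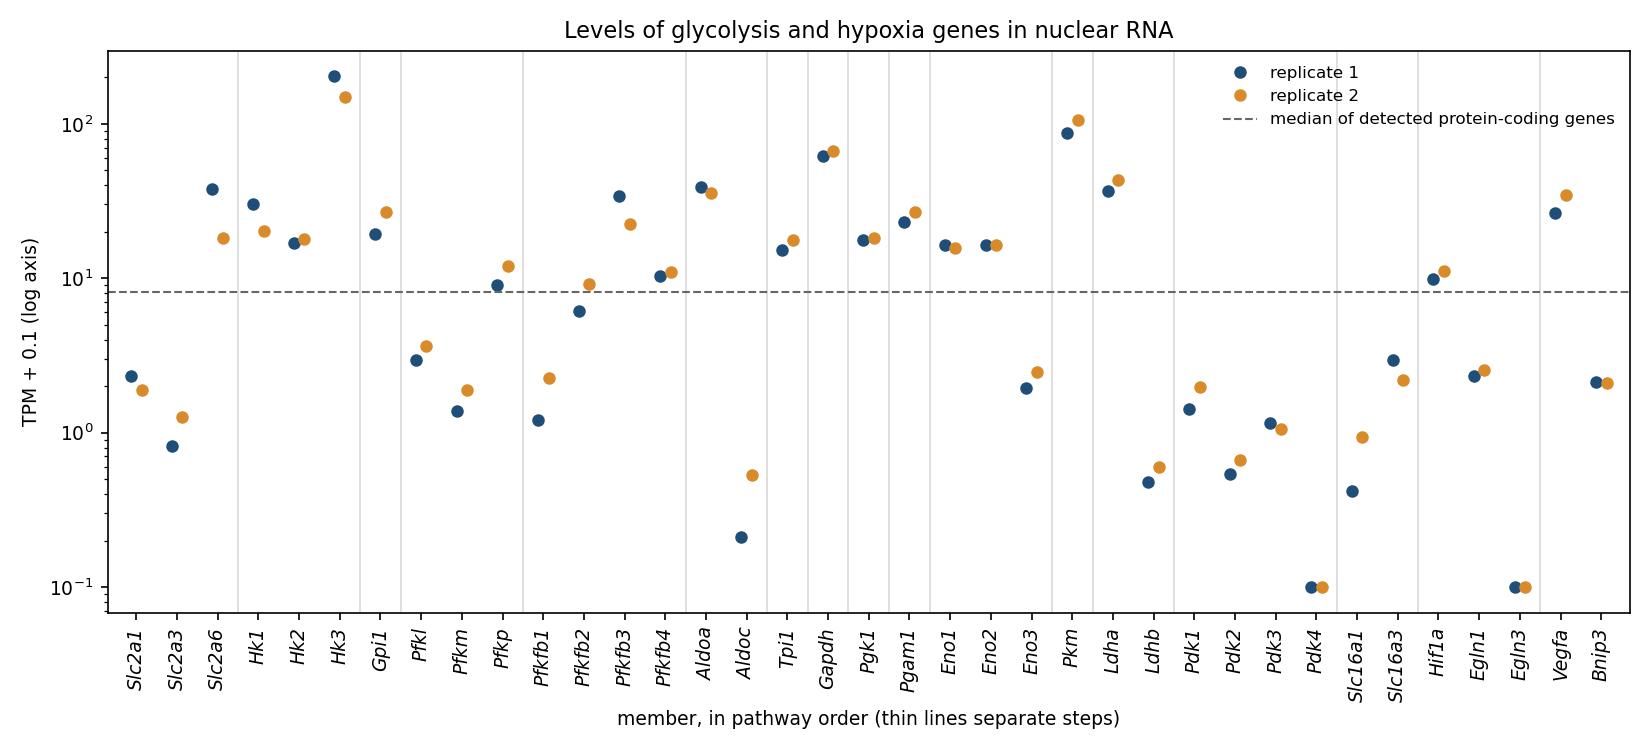
Level of each of the 37 genes in replicate 1 (blue) and replicate 2 (orange), as TPM + 0.1 on a log axis, in pathway order from glucose transporters to HIF targets. The dashed line is the median of detected protein-coding genes. Hk3 stands highest in both libraries, and Pdk4 and Egln3 sit at 0.1 because both had a TPM of 0.

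Glucose enters cells through transporters of the SLC2A family. Slc2a6 (chr2:27021363-27027998, minus strand, mm10), which encodes a transporter found on lysosomes, had 37.5 TPM in replicate 1 and 18.2 TPM in replicate 2. The libraries were far apart for this gene, and they were closer for its relatives. Slc2a1, the widely expressed plasma membrane transporter, had 2.24 and 1.78 TPM in replicates 1 and 2. Slc2a3, a high-affinity transporter, had 0.72 and 1.17 TPM in replicates 1 and 2 and missed the detection rule in replicate 1. Slc2a6 held 89.4% ± 4.70 (SD, n = 2) of the summed TPM of the 3 transporters, so the lysosomal transporter, not the plasma membrane ones, was the most abundant glucose transporter RNA of the 3.

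Hexokinases phosphorylate glucose and keep it in the cell. Hk3 (ENSMUSG00000025877.14, chr13:55005985-55021385, minus strand), the hexokinase known from myeloid cells, had 203 TPM in replicate 1 and 149 TPM in replicate 2, a mean of 176 ± 38.2 (SD, n = 2). It was the highest of the 37 genes and ranked 112 among detected protein-coding genes. Hk1, the ubiquitous form bound to mitochondria, had 30.0 and 20.1 TPM in replicates 1 and 2. Hk2, an inducible form, had 16.9 and 17.8 TPM in replicates 1 and 2. Both replicates of Hk3 lay above both replicates of the other 2 hexokinases, and Hk3 held 80.5% ± 1.06 (SD, n = 2) of the hexokinase TPM. On its own Hk3 made up 27.6% of the summed TPM of the 37 genes in replicate 1 and 21.2% in replicate 2.

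The next steps turn glucose 6-phosphate into fructose bisphosphate. Gpi1, glucose-6-phosphate isomerase, had 19.3 and 26.7 TPM in replicates 1 and 2. Phosphofructokinase catalyses the committed step of glycolysis. Pfkp, the platelet-type subunit, had 8.97 and 11.9 TPM in replicates 1 and 2. The liver-type subunit gene Pfkl had 2.85 and 3.51 TPM in the same order. For Pfkm, the muscle-type subunit, the values were 1.28 and 1.80 TPM in replicates 1 and 2. Pfkp held 68.8% ± 0.437 (SD, n = 2) of the phosphofructokinase TPM, a share that was nearly the same in both libraries. Summed over its 3 genes, phosphofructokinase reached 13.1 and 17.2 TPM in replicates 1 and 2, against 249.8 and 186.8 TPM for the 3 hexokinases.

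The PFKFB genes encode bifunctional enzymes that make and remove the sugar bisphosphate that activates phosphofructokinase. Pfkfb3, the form with the highest kinase over phosphatase activity, had 34.0 and 22.5 TPM in replicates 1 and 2. Pfkfb4 had 10.2 and 10.8 TPM, and Pfkfb2, known from heart, had 6.05 and 9.13 TPM, in replicates 1 and 2. Pfkfb1, known from liver and muscle, had 1.10 and 2.17 TPM in replicates 1 and 2. Pfkfb3 led in both libraries, with 66.2% of the PFKFB TPM in replicate 1 and 50.4% in replicate 2. The 4 PFKFB genes together reached 51.4 and 44.6 TPM in replicates 1 and 2, above the phosphofructokinase genes in both libraries.

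From the splitting of the sugar onward, where sugar phosphates become pyruvate, every step had at least 1 gene with a mean above 15 TPM. Aldoa, the aldolase of muscle and most other tissues, had 38.6 and 35.6 TPM in replicates 1 and 2. Aldoc, the brain-type aldolase, had 0.11 and 0.43 TPM, and Aldoa held 99.3% ± 0.643 (SD, n = 2) of the aldolase TPM. Tpi1, triose-phosphate isomerase, had 15.0 and 17.5 TPM in replicates 1 and 2. The enzyme at the first oxidation step, encoded by Gapdh, came next after Hk3 and Pkm among the 37 genes. Its level was 64.2 ± 3.59 TPM (SD, n = 2), from 61.7 in replicate 1 and 66.7 in replicate 2. Pgk1, phosphoglycerate kinase, had 17.6 and 18.1 TPM in replicates 1 and 2. Pgam1, phosphoglycerate mutase, had 23.05 and 26.8 TPM in replicates 1 and 2. These last 4 enzymes have a single gene each in the list, and their replicates lay close together.

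The enolases were the one family with no clear leader. Eno2, known as the neuronal enolase, had 16.24 and 16.23 TPM in replicates 1 and 2. Eno1, the ubiquitous enolase, had 16.3 and 15.6 TPM in replicates 1 and 2. Eno3, the muscle enolase, had 1.84 and 2.37 TPM. The shares of the family TPM were 47.4% ± 0.0868 for Eno2 and 46.5% ± 1.19 for Eno1 (SD, n = 2), which overlapped between libraries. In the second transcript table of each library Eno1 led instead, with 9.30 and 14.6 TPM against 7.69 and 9.60 TPM for Eno2 in replicates 1 and 2. Of the Eno2 TPM in the first tables, 50.6% ± 2.03 (SD, n = 2) was assigned to retained-intron transcripts.

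**Figure D2:**
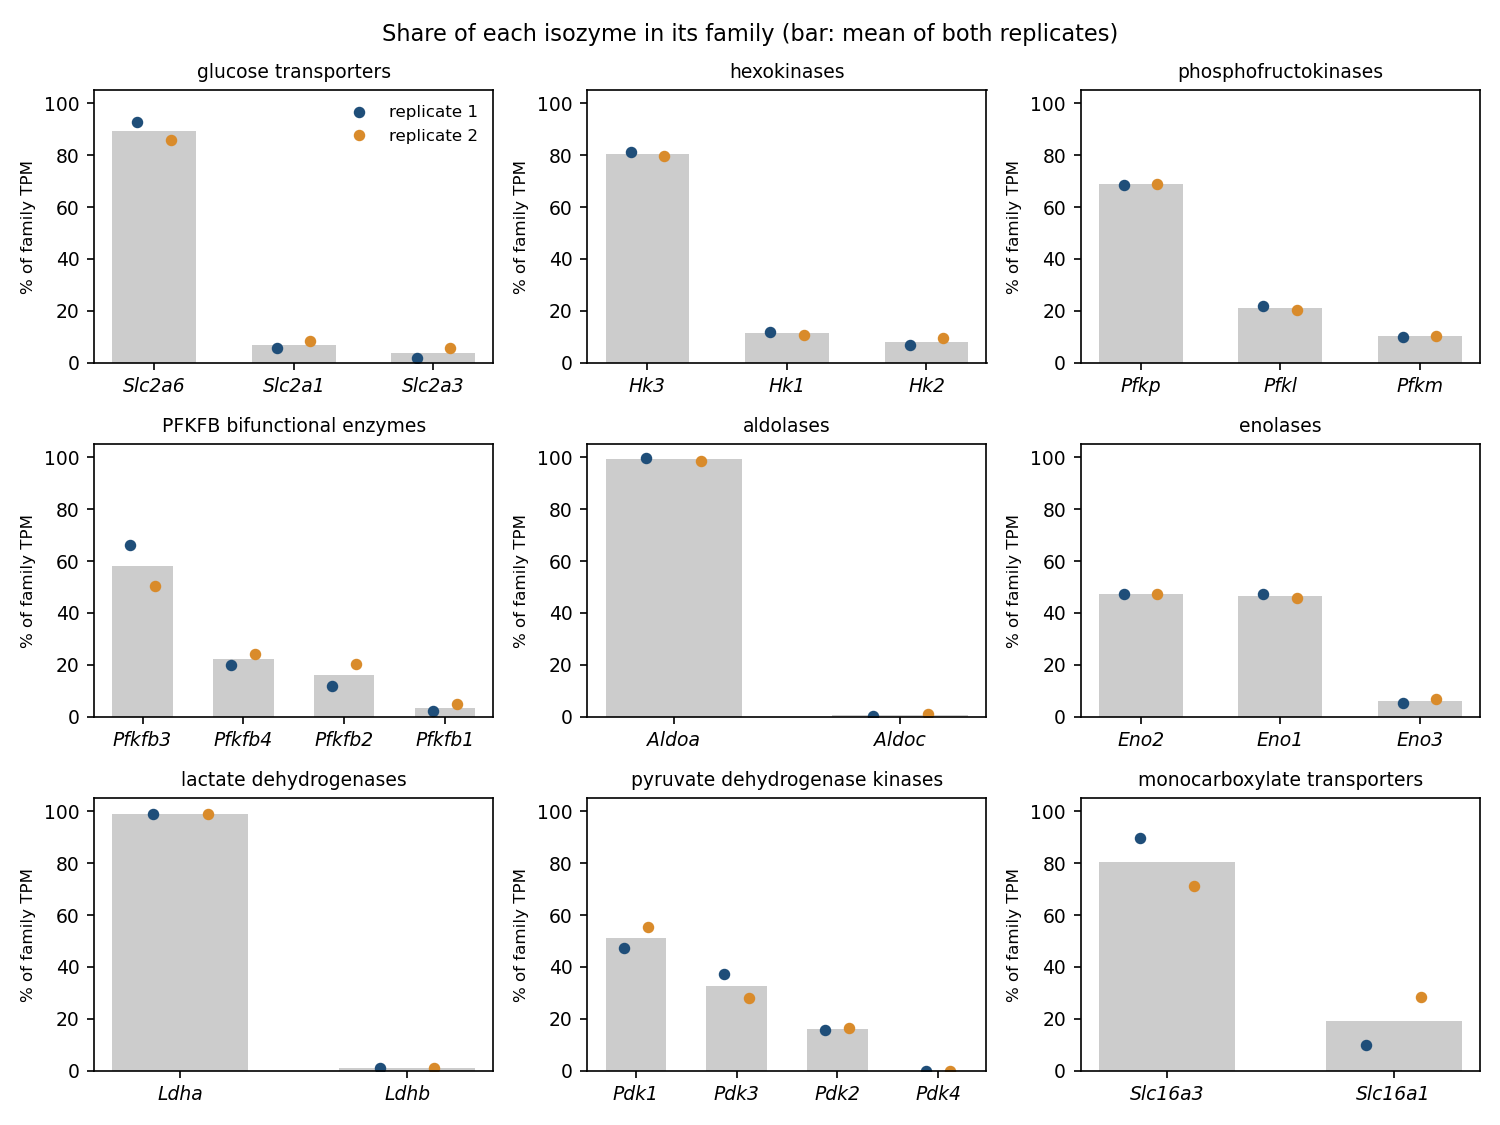
Share of each gene in the summed TPM of its family, in percent, for the 9 families with more than 1 gene. Grey bars are means and points are replicate 1 (blue) and replicate 2 (orange). Slc2a6, Hk3, Aldoa and Ldha each held over 79% of their family in both libraries, while Eno1 and Eno2 were level.

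Pyruvate kinase makes pyruvate and ATP in the last step. Pkm (ENSMUSG00000032294.17, chr9:59656368-59679375, plus strand) had 86.7 TPM in replicate 1 and 106 TPM in replicate 2, a mean of 96.2 ± 13.5 (SD, n = 2), the second highest of the 37 genes. Its transcripts Pkm-202 and Pkm-201 differ in a mutually exclusive exon, which makes the M1 enzyme of muscle and brain (upstream exon) or the M2 enzyme of growing cells and macrophages (downstream exon). Each exon is exon 9 of its transcript in GENCODE M21 and 167 bases long. The M2-type exon lies at chr9:59675568-59675734 and the M1-type exon at chr9:59675029-59675195, both on the plus strand of mm10. They are shown because, within these exons, reads can be told apart only where the exons differ, at 64 of 167 bases (61.7% identity). The transcripts also differ in length, 2432 bases for Pkm-201 and 2041 for Pkm-202, so reads outside these exons may also have separated them. Capitals mark the bases that differ between the exons.
Pkm-201, M2-type exon: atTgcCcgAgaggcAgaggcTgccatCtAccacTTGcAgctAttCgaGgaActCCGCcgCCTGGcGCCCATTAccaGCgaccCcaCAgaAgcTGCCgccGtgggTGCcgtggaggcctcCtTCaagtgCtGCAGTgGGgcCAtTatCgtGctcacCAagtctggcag
Pkm-202, M1-type exon: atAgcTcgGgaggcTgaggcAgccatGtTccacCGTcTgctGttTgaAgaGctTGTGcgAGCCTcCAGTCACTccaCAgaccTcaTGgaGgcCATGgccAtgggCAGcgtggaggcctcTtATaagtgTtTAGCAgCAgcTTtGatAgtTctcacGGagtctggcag

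Of the summed TPM of these 2 transcripts, Pkm-201 held 84.1% in replicate 1 and 92.2% in replicate 2, a mean of 88.2% ± 5.74 (SD, n = 2). The second transcript tables gave 84.5% and 91.9% in replicates 1 and 2. The M2-type transcript was therefore the larger of the pair in both libraries and both quantifications. Over the whole gene, Pkm-201 held 71.1% ± 5.16 of the Pkm TPM and the retained-intron transcript Pkm-205 held 13.6% ± 2.65 (SD, n = 2 each).

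Lactate dehydrogenase turns pyruvate into lactate and back. Ldha, the form that favours lactate, had 36.6 and 43.05 TPM in replicates 1 and 2. Ldhb, the heart form that favours pyruvate, had 0.38 and 0.50 TPM, from 13.9 and 8 counts. Ldha held 98.9% ± 0.0852 (SD, n = 2) of the pair, and the libraries were almost equal in this share. Lactate leaves through monocarboxylate transporters, and both genes of that family in the list were low. Slc16a3, the exporter of glycolytic cells, had 2.86 and 2.10 TPM in replicates 1 and 2. Slc16a1, which carries lactate both ways, had 0.32 and 0.84 TPM and was not detected by the rule. Slc16a3 held 89.9% of the pair in replicate 1 and 71.4% in replicate 2.

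Pyruvate dehydrogenase kinases block the entry of pyruvate into the citric acid cycle, and their genes were the lowest step of the list apart from the monocarboxylate transporters. Pdk1, a HIF target, had 1.33 and 1.88 TPM in replicates 1 and 2 and was the only one of the 4 detected. Pdk3 had 1.05 and 0.95 TPM and Pdk2 had 0.44 and 0.56 TPM in replicates 1 and 2. Pdk4, known from fasting muscle and liver, had 0 counts in both gene tables, which allows up to 0.0593 TPM in replicate 1 and 0.0852 TPM in replicate 2 (3 counts). Its value differed between quantifications, since the second transcript tables gave 0.05 and 0.29 TPM. All 4 kinases together summed to 2.82 and 3.39 TPM, while the monocarboxylate transporters summed to 3.18 and 2.94 TPM, in replicates 1 and 2, so the order of these 2 groups was not clear of the spread.

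Among the oxygen-sensing genes, Hif1a, the regulated subunit of the factor, had 9.80 and 11.0 TPM in replicates 1 and 2. Egln1, the main prolyl hydroxylase acting on it, had 2.22 and 2.46 TPM. Egln3, a prolyl hydroxylase that is itself a HIF target, had 0 counts in both libraries in both quantifications, where 3 counts would be 0.0309 TPM in replicate 1 and 0.0443 TPM in replicate 2. The 2 listed HIF targets outside metabolism stood apart in level. Vegfa, the angiogenic growth factor, had 26.5 and 34.6 TPM in replicates 1 and 2, while Bnip3, a mitophagy receptor, had 2.03 and 1.99 TPM. The Bnip3 level is uncertain, because near-identical copies of its coding sequence took many counts (given below). Levels of the HIF targets named in this paragraph thus ran from Vegfa at the top to Egln3, which had no counts.

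By the lower of the 2 libraries, the genes next to the detection limit were Pfkfb1 just inside it, with 1.10 and 2.17 TPM, and Pdk3 and Slc2a3 just outside it, each with 1 library below 1 TPM. The 8 genes outside it were Pdk3, Slc2a3, Slc16a1, Pdk2, Ldhb, Aldoc, Pdk4 and Egln3. The first 6 of these 8 genes had counts in both libraries.

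The letters at the core of the hypoxia response element were counted in the RefSeq promoter windows of the genes (GRCm38.p6, 250 bases before to 50 bases after a start). The letters searched were ACGTG and GCGTG on both strands, read on the printed strand also as CACGT and CACGC, so that a CACGTG counts once on each strand. A window was held for 36 of the 37 genes, and Slc2a3 had none. At least 1 match was found in 30 of the 36 leading windows (83.3%), against 43.8% of 32851 windows of all genes and 63.0% of 9658 windows of detected protein-coding genes. The mean was 2.25 matches per window for the 36 genes and 0.802 over all windows. All windows include those of genes that were not detected, and no mean was taken over windows of detected protein-coding genes. The 2 means are therefore not of like sets. Matches are a description of letters and not of binding. The windows of Hk1 and Eno2 lie 17941 and 1336 bases from the start of their leading transcripts and may not be the promoters in use.

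Shown are the windows of the gene with the most matches, of the gene with the highest level and of a HIF target with no counts. Capitals mark the matches in the windows of Ldha (7 matches, chr7:46845554-46845853, plus strand), Hk3 (1 match, chr13:55021336-55021635, minus strand) and Egln3 (1 match, chr12:54203825-54204124, minus strand), printed 5′ to 3′ on the strand of the gene.
Ldha: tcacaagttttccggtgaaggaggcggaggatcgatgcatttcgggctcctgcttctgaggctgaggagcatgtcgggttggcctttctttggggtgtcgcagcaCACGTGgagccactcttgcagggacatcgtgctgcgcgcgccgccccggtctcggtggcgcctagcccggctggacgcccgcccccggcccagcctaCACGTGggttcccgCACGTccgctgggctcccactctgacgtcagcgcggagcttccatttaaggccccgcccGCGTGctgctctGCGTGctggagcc
Hk3: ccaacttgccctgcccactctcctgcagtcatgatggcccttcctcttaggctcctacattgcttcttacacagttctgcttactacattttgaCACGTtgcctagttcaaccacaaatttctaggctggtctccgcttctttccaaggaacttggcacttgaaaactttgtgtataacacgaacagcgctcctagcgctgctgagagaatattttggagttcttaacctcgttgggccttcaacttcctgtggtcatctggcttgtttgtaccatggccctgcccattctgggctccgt
Egln3: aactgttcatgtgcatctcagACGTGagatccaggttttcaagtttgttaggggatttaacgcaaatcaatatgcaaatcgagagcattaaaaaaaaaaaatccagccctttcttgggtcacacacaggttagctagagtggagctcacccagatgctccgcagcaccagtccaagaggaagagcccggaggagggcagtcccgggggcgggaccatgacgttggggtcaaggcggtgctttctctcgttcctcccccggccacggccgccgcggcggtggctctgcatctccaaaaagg
Hk3, at 203 and 149 TPM, and Egln3, with no counts, each had 1 match. Vegfa and Pkm, both well expressed, had 0 in their windows.

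The replicates were set against each other by the log2 ratio of TMM-normalised counts, replicate 2 over replicate 1, with an exact binomial 95% interval that covers counting error only. A mean count of at least 10 was reached by 35 genes, and 3 of them (8.57%) lay past 2-fold, against 6.2% of 11754 protein-coding genes at that count. Of the 3, 1 was lower in replicate 2, against 4.06% of all such genes, and 2 were higher, against 2.14%. The median ratio was -0.04 for the 35 genes and 0.01 for all protein-coding genes, with 16 of the 35 above 0 and 19 below. The share past 2-fold was near that of all genes, and the median lay near that of all genes.

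Slc2a6 had 3020 counts in replicate 1 and 1042 in replicate 2, a log2 ratio of -1.26 (interval -1.36 to -1.16). Its fold difference was 2.40 in favour of replicate 1, and it was past 2-fold in all 9 settings that were run. Slc16a1 had 53 and 98 counts in replicates 1 and 2, a log2 ratio of 1.15 (interval 0.66 to 1.67). For Aldoc, with 11 and 21 counts, the log2 ratio was 1.18 (interval 0.09 to 2.41). Slc16a1 and Aldoc thus rest on few counts, and their intervals reach within 2-fold. Among genes within 2-fold, Hk1 and Hk3 were lower in replicate 2, at -0.80 and -0.68, as was Pfkfb3 at -0.57. Higher in replicate 2 were Pfkfb1 at 0.94 (interval 0.34 to 1.56), Slc2a3 at 0.81 (interval 0.43 to 1.20), Pfkfb2 at 0.45 and Vegfa at 0.28. All 10 macrophage markers had log2 ratios below 0, between -1.14 (Fcgr1) and -0.11 (Mertk). Of 5 other-lineage markers with a mean count of at least 10, 4 lay below 0 and 1 above, between -1.52 (Kdr) and 0.22 (Vwf), both endothelial markers. The part of these markers in the ratios was not tested.

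**Figure D3:**
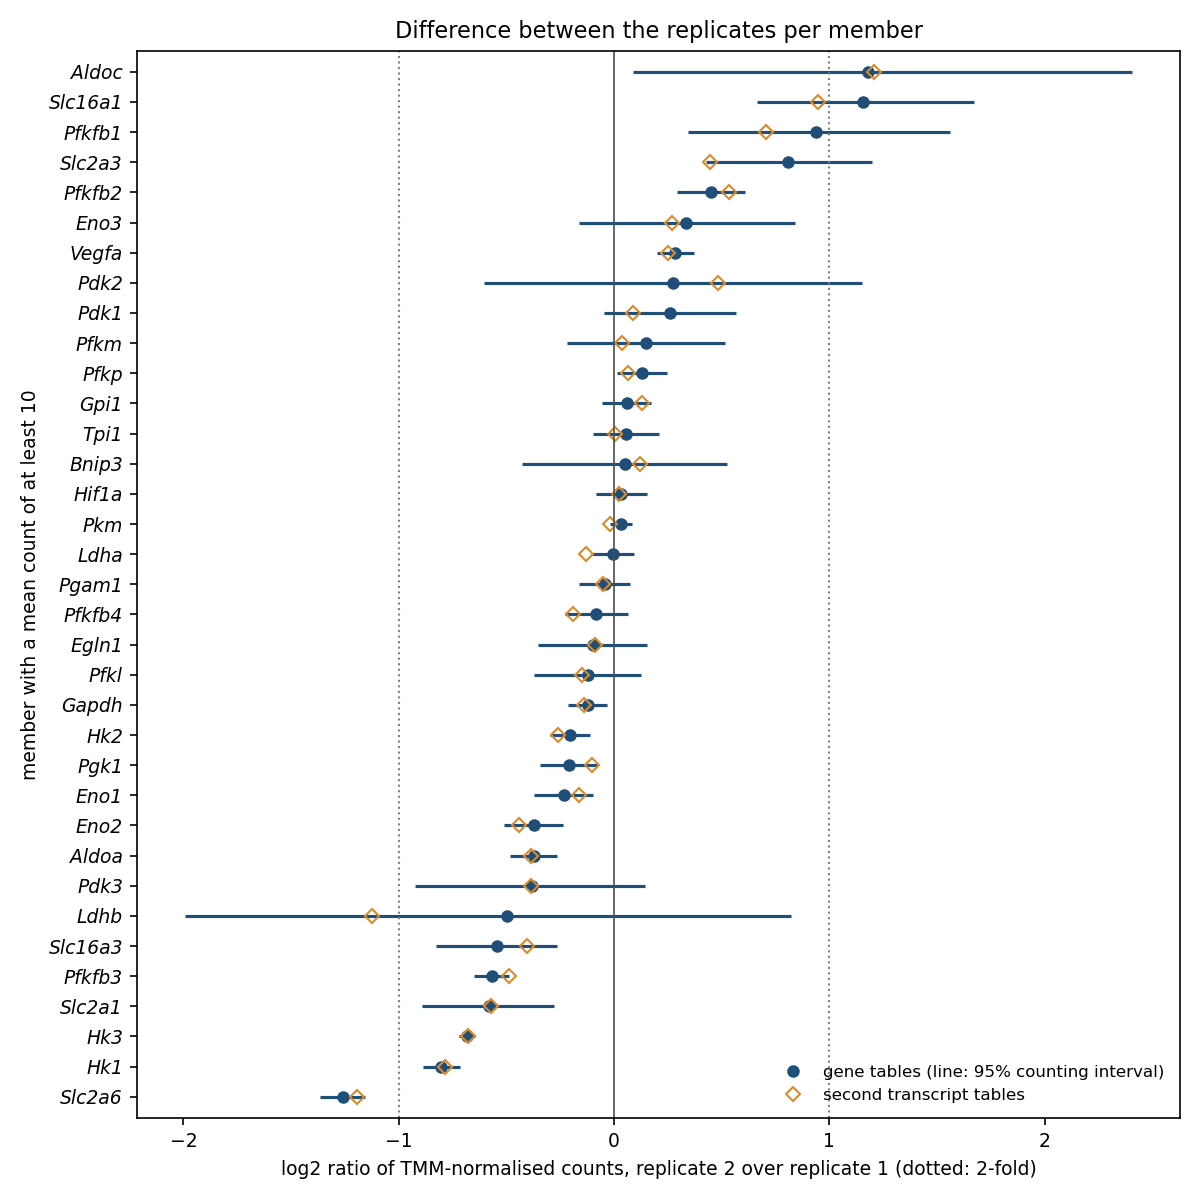
Log2 ratio between the replicates (2 over 1) on normalised counts, for the 35 genes whose counts averaged 10 or more. Filled points with lines are the gene tables with 95% counting intervals, open diamonds are the second transcript tables, and dotted lines mark 2-fold. Slc2a6 lies at -1.26 with an interval beyond 2-fold, and the interval excludes 0 for 19 of the 35 genes, against 53.6% of all protein-coding genes at that count.

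The counting interval excluded 0 for 19 of the 35 genes, against 53.6% of all protein-coding genes at that count. It lay above 0 for 7 genes, against 26.2% of all, and below 0 for 12, against 27.4%, so the 35 genes were near the background. The sign of the ratio was the same in the second transcript tables for 34 of the 35 genes, and Pkm, near 0 in both, was the exception. The ratio also moved with transcript length over all protein-coding genes, with a median of -0.24 in the shortest of 10 length classes and 0.10 in the longest. Taken relative to its length class, Slc2a6 had a log2 ratio of -1.28. TPM ran higher in replicate 2, by a median of 0.23 on the log2 scale over protein-coding genes, so TPM pairs above with a modest excess in replicate 2, such as those of Pkm, Gapdh and Ldha, do not show more RNA there. For these 3 genes the log2 ratios of normalised counts were 0.03, -0.12 and 0.00.

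The leading transcript of each gene with at least 10 TPM was taken by its share of the gene's TPM. It was annotated as protein-coding for 17 of the 19 genes and as a retained intron for Eno2 (Eno2-203, 24.7% ± 1.34) and Pfkp (Pfkp-212, 24.5% ± 0.630; SD, n = 2 each). In Pgk1, Pgam1, Ldha and Tpi1 a single transcript held most of the gene, with 97.5% ± 0.697 for Pgk1-201, 92.6% ± 0.836 for Pgam1-201, 86.9% ± 0.501 for Ldha-202 and 82.3% ± 10.1 for Tpi1-205 (SD, n = 2 each). Hk3 was split. Its coding transcript Hk3-208 held 45.5% and 42.4% in replicates 1 and 2, and Hk3-204, annotated for nonsense-mediated decay, held 24.0% and 27.3%. A further 22.4% and 22.1% fell to Hk3-205, a short noncoding transcript of 639 bases. It had 762 and 382 counts in replicates 1 and 2, against 17579 and 9054 for Hk3. Its 45.4 and 33.0 TPM, part of the Hk3 level above, thus rest on a small part of the counts. Gapdh was unstable between libraries, as Gapdh-212 held 28.2% in replicate 1 and 50.1% in replicate 2.

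Leaders with 50% or more of the TPM in both libraries were also found in 5 further genes. Eno1-202 held 70.4% ± 6.24, Aldoa-201 held 69.9% ± 0.584 and Slc2a6-201 held 62.1% ± 10.3 of their genes (SD, n = 2 each). Hk2-201 held 60.9% ± 1.14 and Vegfa-202 held 57.2% ± 4.14 (SD, n = 2 each). Beside Hk3, Eno2 and Pfkp, the leader stayed below 50% in both libraries in 5 genes. These were Hif1a-201 with 46.6% ± 2.42, Hk1-201 with 46.5% ± 0.725, Pfkfb3-206 with 34.8% ± 8.96, Gpi1-201 with 32.2% ± 7.07 and Pfkfb4-203 with 29.9% ± 9.97 (SD, n = 2 each). The second transcript tables gave the same leader for 15 of the 19 genes. There Pfkp-201, a coding transcript, held 14.5% against 13.4% for Pfkp-212, and Eno2-201, also coding, was level with Eno2-203 at 17.0%. Noncoding Hk3-205 held 29.1% against 27.9% for Hk3-208, and the retained-intron transcript Pfkfb4-208 held 21.4% against 17.2% for Pfkfb4-203. For 1 of the 19 leaders, Eno1-202, the share differed by more than 20 percentage points, at 41.3% in the second tables.

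Nuclear RNA holds transcripts that are still being spliced, and the annotation separately holds fixed transcript models named retained introns. The shares below are of those models, and whether their reads came from RNA still being spliced was not tested. Among the 22 genes of the list with both a retained-intron and a protein-coding transcript and a TPM of at least 1, the median share on retained introns was 16.5% (16.3% in replicate 1 and 16.1% in replicate 2). Over all 5979 such genes the median was 26.7% (26.4% and 27.1%). More than 20% of the TPM was on retained introns in 9 of the 22 genes, against 63.5% of all such genes. Pfkp stood highest at 62.9% ± 1.49, followed by Eno2 at 50.6% ± 2.03 and Gpi1 at 33.9% ± 0.651 (SD, n = 2 each). The replicates of Pfkp and Eno2 both lay above those of every other gene of the list. Pfkfb4 had 32.6% ± 6.25 and Vegfa 32.2% ± 4.67 (SD, n = 2 each). These are shares of TPM, in which short models weigh more than in counts. Vegfa-210, a retained-intron model of 852 bases, held 13.8% and 19.0% of the Vegfa TPM in replicates 1 and 2. It had only 91.7 and 115 counts, against 2253 and 2269 for Vegfa. The order of genes and the number above 20% were not checked on counts. Low shares were found for Ldha at 6.15% ± 0.432 and Pgk1 at 2.48% ± 0.697 (SD, n = 2 each), and Eno3 had 0% in both libraries. The second transcript tables gave higher medians for both sets, 22.7% over 21 genes of the list and 31.7% over 5809 genes in all.

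**Figure D4:**
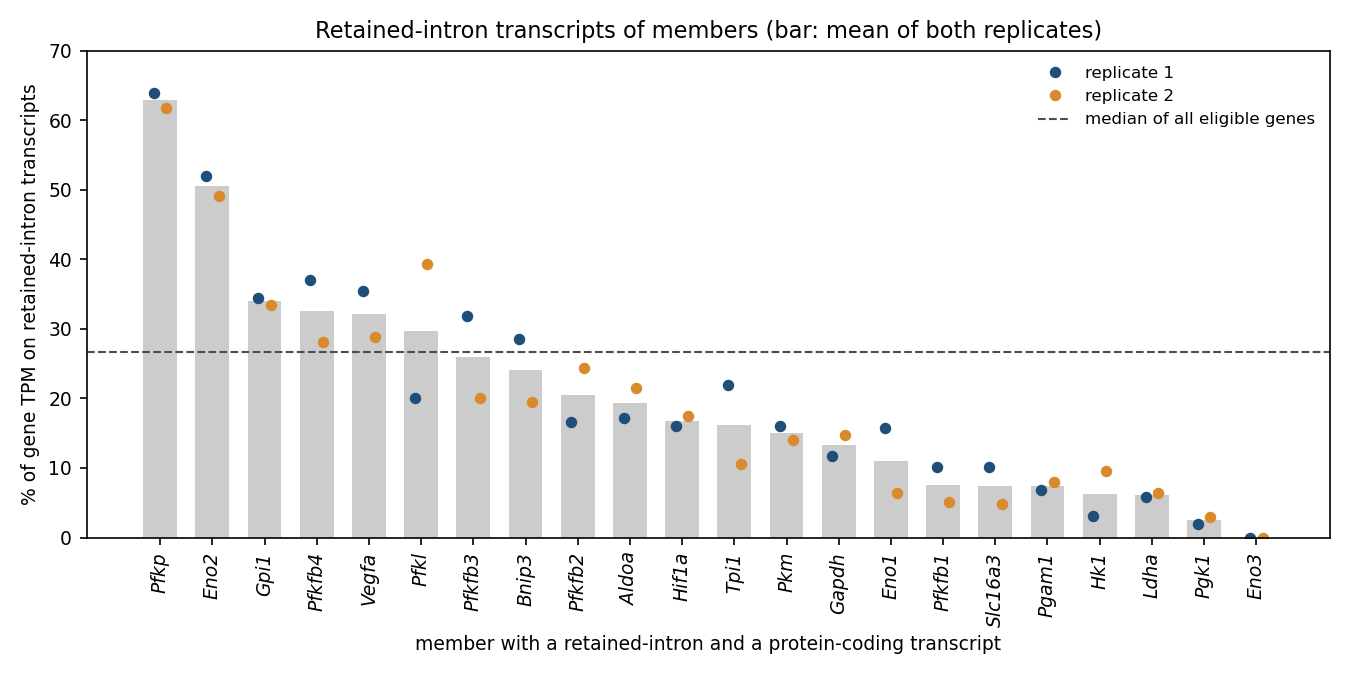
Percent of each gene's TPM on transcripts annotated as retained introns, for the 22 genes of the list that have both such a transcript and a coding one. Grey bars are means, points are replicate 1 (blue) and replicate 2 (orange), and the dashed line is the median of 26.7% over all 5979 such genes. Pfkp and Eno2 stand above the rest, and Ldha, Pgk1 and Eno3 are lowest.

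Transcripts annotated for nonsense-mediated decay took more than 20% of the TPM in 3 of the 12 genes that have one. These were Pfkfb2 at 31.5% ± 12.1, Hk3 at 25.6% ± 2.31 and Slc2a1 at 21.7% ± 1.05 (SD, n = 2 each). Over all 2959 such genes 18.0% passed that share. In the second transcript tables Hk3 held 11.2% (9.51% in replicate 1 and 12.9% in replicate 2) and was below 20%. There 4 of 12 genes passed 20%, Slc2a1 at 32.5%, Pfkfb2 at 30.1%, Pfkfb4 at 23.1% and Gpi1 at 22.7%, against 21.3% of 2855 such genes.

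Some of these counts could be shared with other genes. Coding sequences at 90% identity or more over at least 50% of their length were found elsewhere for 12 of the 37 genes, 185 copies in all. Gapdh had 150 of them, which took 34.0% of the combined counts in replicate 1 and 34.9% in replicate 2. They include the coding gene Peli2, which had 344 and 283 counts of its own. The 144 copies annotated as pseudogenes took 26.8% and 27.3% of the counts of Gapdh and pseudogenes in replicates 1 and 2, and 44.4% and 40.3% in the second transcript tables, so the Gapdh level is uncertain. For Bnip3, 5 copies took 63.1% and 51.4% of the combined counts in replicates 1 and 2, and 99.3% and 99.2% in the second tables, nearly all on the noncoding gene AC160336.1. That gene had 142 and 75.0 counts in the gene tables and 14973 and 13572 in the second tables, so the Bnip3 level is uncertain too. The length rule applied to the coding sequence of the listed gene only. Counts of a copy such as AC160336.1 or Peli2 may therefore include reads from parts unlike the listed gene. These percentages are upper limits only for reads of the listed gene that were assigned to copies. Reads of copies that were assigned to the listed gene are not covered by them. Copies took less for Pgk1 (6.16% and 7.08% of the combined counts), and for Ldha, with 9 copies, 0.542% and 0.917%.

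Exons of 14 of the genes overlap exons of another gene, 13 of them on the opposite strand, and whether counting used strand is not given in the sources used here. For 8 genes, Gpi1, Pfkm, Pfkp, Pfkfb1, Pfkfb2, Tpi1, Gapdh and Pkm, the overlapping gene had more than 10% of their counts. Pfkm, with 133 and 122 counts in replicates 1 and 2, overlaps Senp1, which had 1579 and 1248. Pfkfb1, with 39 and 62 counts, overlaps Apex2, which had 597 and 645. On the same strand, Pfkm also overlaps Gm26513 by up to 341 bases, with 58 and 37 counts for Gm26513. Pkm overlaps Gm49759 on the same strand by up to 454 bases. Gm49759 had 1878 and 1585 counts, against 7041 and 5953 for Pkm. The longest exon overlap was 18 bases for Pfkm and Senp1, 73 for Pfkfb1 and Apex2, and 748 for Pfkp and Pitrm1. Pitrm1 had 592 and 606 counts, against 1285 and 1162 for Pfkp, in replicates 1 and 2. Hk3 overlaps 34 bases of Unc5a, which had 618 and 367 counts against 17579 and 9054 for Hk3. The low values of Pfkm and Pfkfb1 and the levels of Pfkp and Pkm are therefore uncertain.

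Further genes of the same pathways, listed apart from the 37, gave the setting. Of these 85 genes 50 were detected, against 42.9% of all protein-coding genes, the share to set beside each count below. The pentose phosphate pathway, which branches from glycolysis and makes NADPH, had 8 of 8 genes detected, led by Pgd with 32.5 and 39.8 TPM and G6pdx with 15.9 and 23.2 TPM in replicates 1 and 2. All 10 genes of pyruvate entry into mitochondria were detected, led by the pyruvate carrier gene Mpc1 with 13.8 and 22.0 TPM and by Pdhb with 13.6 and 20.6 TPM. Of other glycolysis and gluconeogenesis genes 10 of 25 were detected, led by Adpgk, an ADP-dependent glucokinase, with 7.66 and 11.0 TPM and Gpd2 with 7.30 and 7.51 TPM. Other sugar transporters counted 2 of 6, Slc2a9 with 8.98 and 8.03 TPM and Slc2a8 with 3.09 and 3.87 TPM.

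Other lactate transport genes counted 3 of 4. Bsg, the chaperone of the monocarboxylate transporters, had 28.0 and 28.8 TPM in replicates 1 and 2, and Slc16a7, a further monocarboxylate transporter, had 11.2 and 9.20 TPM. Slc16a7 thus lay above Slc16a3 and Slc16a1 in both libraries. Other oxygen-sensing genes counted 9 of 12. Arnt, the partner of HIF1A, had 14.4 and 19.3 TPM, and Rbx1, a subunit of the ubiquitin ligase that degrades it, had 13.9 and 15.8 TPM. Of other genes known as hypoxia-induced, 8 of 20 were detected, led by the collagen-modifying enzyme genes Plod1 with 64.9 and 54.1 TPM and P4ha1 with 33.2 and 21.9 TPM. Among the 85, with a mean count of at least 50, Ndrg1 lay past 2-fold, with 77 and 188 counts in replicates 1 and 2 and a log2 ratio of 1.56.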

How the data were processed

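Total RNA-seq of 2 nuclear libraries in 1 group was used. The gene tables hold, per the file headers, an expected count and a TPM per gene, and the authors' transcript tables add the percent of the gene's TPM per transcript (IsoPct). A second deposited transcript table gives an estimated count and a TPM. Files use mm10 with GENCODE M21. Quantifiers, aligner and strandedness: not given in the sources used here. Entries naming no gene held 1.06% and 0.245% of counts in replicates 1 and 2 and were left out of library sizes.

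Expected counts were rounded for edgeR 4.0.16 (R 4.3.3), whose TMM factors were 0.945 and 1.06 for replicates 1 and 2, and 0.5 was added in ratios. DESeq2 1.42.0 size factors were an alternative. Ratios were tested on simulated data. Copies were searched with BLAST 2.17.0, and tables were handled with Python 3.11.15. No gene was tested for a difference, because 1 library stood on each side. Intervals and floors of 3 counts cover counting error only.

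Genes entered by symbol alone, but the 37 genes and all lists were chosen with earlier results of these data known. All 37 genes are accounted for. Transcripts are named for genes with at least 10 TPM (the leader), and of the other lists the 2 highest genes and those past 2-fold at a mean count of at least 50. Genes or transcripts named beyond that were chosen after their values were seen. Alternatives covered normalisation, low-count filters, the added count, the quantification and leaving out each replicate.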

Additional observations from a re-analysis of the deposited data

How the results depend on the processing

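Of 92 alternative values over 18 results, 73 stayed within a limit, 19 moved, and the genes past 2-fold kept their sign. The limit was the SD between replicates for levels and shares, the half-width of the counting interval for log2 ratios, and a factor of 1.5 for counts of genes. Some values could not move. Leaving out either replicate always keeps a leading share within its SD, and a change of low-count filter does not alter the ratio of a single gene. The median level of the 37 genes was 7.01 TPM in the second transcript tables, 49.1 TPM when scaled over protein-coding genes only, and 8.97 to 10.8 TPM with either replicate left out. The median log2 ratio changed sign, from -0.04 to 0.21, with deposited TPM, which runs higher in replicate 2 by 0.23 over protein-coding genes. Leading shares in the second tables were 86.3% for hexokinases, 99.2% for lactate dehydrogenases, 84.3% for glucose transporters and 39.2% for enolases (Eno2, with Eno1 leading). With counts in place of TPM they were 74.6%, 99.4%, 84.2% and 48.5% in the same order, 75.3% for phosphofructokinases and 67.1% for pyruvate dehydrogenase kinases. The retained-intron median was 22.7% in the second tables, 15.6% at a TPM of at least 10, and 16.1% to 16.3% with either replicate left out. The causes were not tested. Between 2 and 4 genes were past 2-fold: Aldoc was not at a mean count of at least 50 or with 5 added, Slc16a1 was not in the second tables or relative to the median TPM, and the second tables added Ldhb and Pdk4. Ratios relative to length class, which added Pfkfb1, were chosen after seeing the data. Depth limits Aldoc, Ldhb and Pdk2, each under 30 counts in both libraries. No paired analysis was possible because the study has 1 group.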
